A study of Mus musculus with 8 samples.

Results

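Amacrine cells are the inhibitory interneurons of the inner retina, and 9 genes for transcription factors that specify them or mark their subtypes (*Ptf1a*, *Prdm13*, *Tfap2a*, *Tfap2b*, *Tfap2c*, *Barhl2*, *Neurod2*, *Neurod6* and *Meis2*) were taken by name from the 54532 genes in the table. None was removed for low counts, so all 9 are among the 17998 genes tested. RNA was measured by bulk RNA-seq of whole retina, with 4 samples from *Six3-Cre*+; *Mettl3* floxed/floxed mice (*Mettl3*-CKO) and 4 from littermate controls, whose own alleles are not given in the sources used here. The sample labels and the results text of the study give the age as postnatal day 7, whereas its written methods name a day earlier. In this model *Six3-Cre* removes *Mettl3*, the methyltransferase that writes m6A on RNA, in retinal progenitors, so that cells of other origin in the tissue, such as blood vessels, keep the gene. The study describes the loss as efficient in the central retina. Nothing in the labels says how many pups went into a sample, so the p-values below measure the spread between these samples.

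In the study's account, GABAergic amacrine cells form early, before birth. Glycinergic ones form later, after birth, like rods and bipolar cells, and Müller glia come last. At the end of the first postnatal week amacrine cells are maturing and forming synapses. The bHLH factor *Ptf1a* is switched on briefly in newborn amacrine and horizontal cells and turns precursors away from other fates. *Prdm13*, a zinc finger factor of the PRDM family, acts downstream of it, the AP-2 factors and *Barhl2* stay on in differentiated amacrine cells, and *Neurod2* and *Neurod6* mark subsets of them. In bulk tissue, fewer cells of a type and less RNA per cell cannot be told apart. The study counted cells by staining at postnatal day 7. It found comparable numbers of CALBINDIN-positive amacrine cells in mutant and control retinas, and fewer CALBINDIN-positive horizontal cells. CALBINDIN marks only a part of the amacrine cells, and the subtypes of the factors here were not counted.

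Of the 9 factors, *Prdm13*, *Neurod2* and *Neurod6* fell in *Mettl3*-CKO retinas, to 63.3%, 48.8% and 33.0% of the control mean, and no factor rose. *Ptf1a*, *Tfap2a*, *Tfap2b*, *Tfap2c*, *Barhl2* and *Meis2* did not pass the test, and their group means lay between 86.0% and 120% of control. The count of 3 factors called lower among 9 stands beside 4.05% of all tested genes called lower, and the count of 0 called higher beside 6.49% (edgeR's quasi-likelihood test, Benjamini-Hochberg adjustment over all tested genes, threshold 0.05). No factor was higher at an unadjusted p under 0.05 either, and DESeq2 and limma voom also called 0 higher. DESeq2 called 3 factors lower and limma voom 5, the additional ones being *Tfap2a* and *Barhl2*. The groups did not overlap for 3 of the 9 factors and for 17.4% of all tested genes. The median log2 fold change was -0.21 over the 9 factors and -0.01 over all tested genes.

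The 3 genes that fell lie on different chromosomes and have no annotated transcript of another gene across them in GENCODE vM21. Their promoters are shown because they moved together, and because E-boxes (CANNTG, which reads the same on both strands) are the sites that bHLH factors such as *Ptf1a* bind. The letters are RefSeq's on GRCm38.p6, 5′ to 3′ on the gene's strand and upstream of the annotated start, with E-boxes in capitals. *Prdm13* has the window chr4:21685964-21686213 (minus strand), *Neurod2* chr11:98329649-98329895 (minus strand) and *Neurod6* chr6:55681264-55681513 (minus strand).
Prdm13: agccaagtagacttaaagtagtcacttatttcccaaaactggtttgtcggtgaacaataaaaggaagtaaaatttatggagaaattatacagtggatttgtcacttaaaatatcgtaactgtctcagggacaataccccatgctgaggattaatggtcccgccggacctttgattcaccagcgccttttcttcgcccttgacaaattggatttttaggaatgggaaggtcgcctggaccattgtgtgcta
Neurod2: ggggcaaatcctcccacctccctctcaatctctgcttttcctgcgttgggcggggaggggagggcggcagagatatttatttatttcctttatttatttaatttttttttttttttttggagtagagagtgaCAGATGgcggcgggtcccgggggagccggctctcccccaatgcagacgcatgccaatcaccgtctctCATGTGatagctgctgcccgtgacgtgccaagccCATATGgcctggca
Neurod6: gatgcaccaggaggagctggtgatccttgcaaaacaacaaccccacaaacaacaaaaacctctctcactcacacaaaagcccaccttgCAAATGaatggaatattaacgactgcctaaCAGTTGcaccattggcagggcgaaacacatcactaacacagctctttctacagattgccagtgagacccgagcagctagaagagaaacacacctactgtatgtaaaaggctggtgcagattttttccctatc
The *Neurod2* window held 3 E-boxes, the *Neurod6* window 2 and the *Prdm13* window 0. An E-box occurred in 66.2% of all 32851 promoter windows of 250 bases, with a median of 1. In the windows of the factors that did not pass the test, *Barhl2* had 2, *Tfap2b* had 1, and *Ptf1a*, *Meis2* and both windows of *Tfap2a* had 0. E-box number therefore did not separate the factors that fell from the others, and a match describes letters only. *Tfap2c* had no window in the table.

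The libraries were of similar depth, with 16227095 to 20281517 counts, and 3 counts equal at most 0.185 CPM. *Mettl3* itself averaged 24.1 ± 3.97 CPM in *Mettl3*-CKO against 31.2 ± 2.24 CPM in control retinas (SD, n = 4 each), a log2 fold change of -0.38 (SE 0.12, adjusted p = 0.0602 from edgeR), and *Mettl3*-CKO replicate 2 overlapped the controls. Without that sample, dropped with its value known, the log2 fold change was -0.49 (adjusted p = 0.0185 from edgeR). *Mettl3* passed in only 1 of the 8 fits that each left out a sample. The adjusted p over these fits reached 0.185 (edgeR). Retinal identity was plain in every sample, since the 10 rod genes summed to between 1820 and 5130 CPM and the 9 factors to between 793 and 1100 CPM. Control replicate 4 held lens RNA, with 15 lens genes at 3340 CPM against 10.1 to 77.3 CPM in the other 7 samples. Control replicate 1 had the highest rod sum (5130 CPM) and the lowest progenitor and cell cycle sum (2220 CPM).

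Levels of different genes were compared per length, as FPKM calculated from the counts, gene lengths and library totals. The gene length joins the exons of all annotated transcripts, which for *Meis2* is 12043 bases over 19 transcripts. Its longest coding transcript has 3718 bases, whereas for *Tfap2b* the values are 6338 and 5863 bases. The values also differ for *Prdm13* (4280 and 3173 bases), *Tfap2a* (4903 and 3487) and *Tfap2c* (3679 and 2985). They are equal for *Barhl2*, *Neurod2*, *Ptf1a* and *Neurod6*. The place of *Meis2* in the order and the size of the lead of *Tfap2b* over it therefore depend on the length used. So does the order of factors at similar levels, in either group. *Tfap2b* stood well above the rest at 73.4 ± 13.8 FPKM (SD, n = 4) in controls, at percentile 97.2 of the tested genes. *Prdm13* (19.5 ± 2.61 FPKM), *Meis2* (19.0 ± 1.91), *Barhl2* (18.9 ± 3.77) and *Tfap2a* (18.8 ± 3.22) followed, and each overlapped its neighbour in this order (SD, n = 4 each). *Neurod2* (7.82 ± 1.01 FPKM) and *Tfap2c* (6.15 ± 1.10) formed the next step and overlapped each other as well (SD, n = 4 each). *Ptf1a* was at 2.13 ± 0.275 FPKM and *Neurod6* at 0.757 ± 0.115 FPKM (SD, n = 4 each), and both stood apart from their neighbours. In *Mettl3*-CKO retinas *Prdm13* was at 12.4 ± 1.85 FPKM, below *Meis2* (20.3 ± 2.10), *Barhl2* (16.4 ± 1.73) and *Tfap2a* (16.3 ± 3.94) in the mean (SD, n = 4 each), but it overlapped *Tfap2a*, since its highest sample (14.8 FPKM) exceeded the lowest of *Tfap2a* (13.2 FPKM). *Neurod2* at 3.84 ± 1.13 FPKM lay below *Tfap2c* at 5.64 ± 0.761 FPKM (SD, n = 4 each), without overlap.

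**Figure D1:**
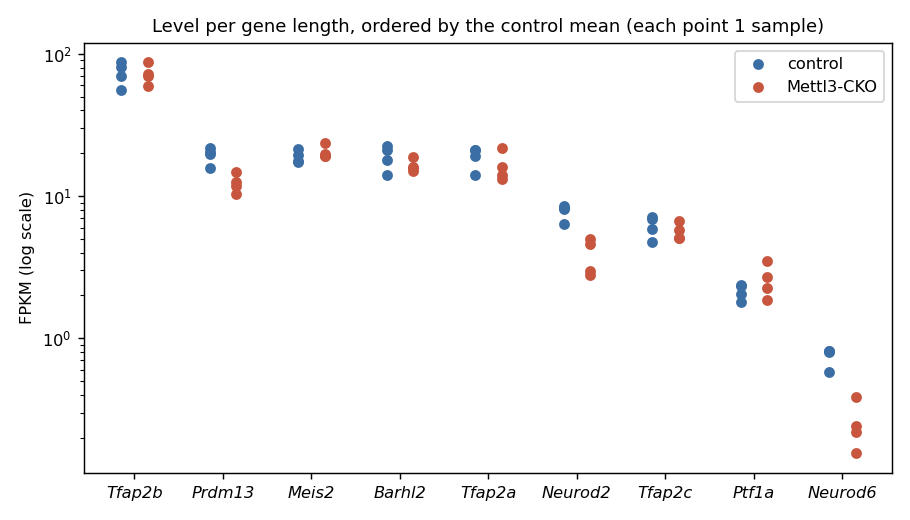
FPKM (log scale) of the 9 factors in each sample, ordered by the control mean, with controls in blue and *Mettl3*-CKO in red. *Tfap2b* is the highest and *Neurod6* the lowest in both groups, and the red points lie below all blue points for *Prdm13*, *Neurod2* and *Neurod6*.

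*Ptf1a* and *Prdm13*, the early factor and its downstream target, did not move alike. *Ptf1a* was at 2.78, 3.06, 3.52 and 3.57 CPM in control replicates 1 to 4 (52, 50, 67 and 59 counts) and at 5.20, 4.06, 3.45 and 2.79 CPM in the *Mettl3*-CKO samples, in the same order (94, 70, 65 and 57 counts). *Mettl3*-CKO replicates 1 and 2 lay above every control, and replicates 3 and 4 within the control range. The log2 fold change was 0.26 (SE 0.22, 95% interval -0.21 to 0.72, adjusted p = 0.512 from edgeR), so that a rise of up to 1.65-fold lies inside the interval. The gene on chromosome 2 (19445663 to 19447501, plus strand, GRCm38) shares 609 exon bases with the antisense transcript *Ptf1aos*, and whether reads were counted by strand is not given, so its counts are uncertain to that extent.

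*Prdm13*, on chromosome 4 (21677480 to 21685963, minus strand), was at 69.7, 84.1, 87.8 and 92.8 CPM in control replicates 1 to 4 and at 44.2, 63.6, 50.6 and 53.2 CPM in the *Mettl3*-CKO samples, in the same order. Every *Mettl3*-CKO sample was below every control, the nearest pair being *Mettl3*-CKO replicate 2 and control replicate 1. The means were 52.9 ± 8.05 and 83.6 ± 9.95 CPM (SD, n = 4 each), a log2 fold change of -0.66 (SE 0.12, 95% interval -0.92 to -0.40, adjusted p = 0.00566 from edgeR). Dropping any of the 8 samples kept it called, with log2 fold changes from -0.76 to -0.58. Among the 469 tested genes that the table assigns to the C2H2 zinc finger family, 46 were called higher (9.81%) and 4 lower (0.853%). *Prdm13* is among these 4. Over all tested genes the shares were 6.49% higher and 4.05% lower.

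**Figure D2:**
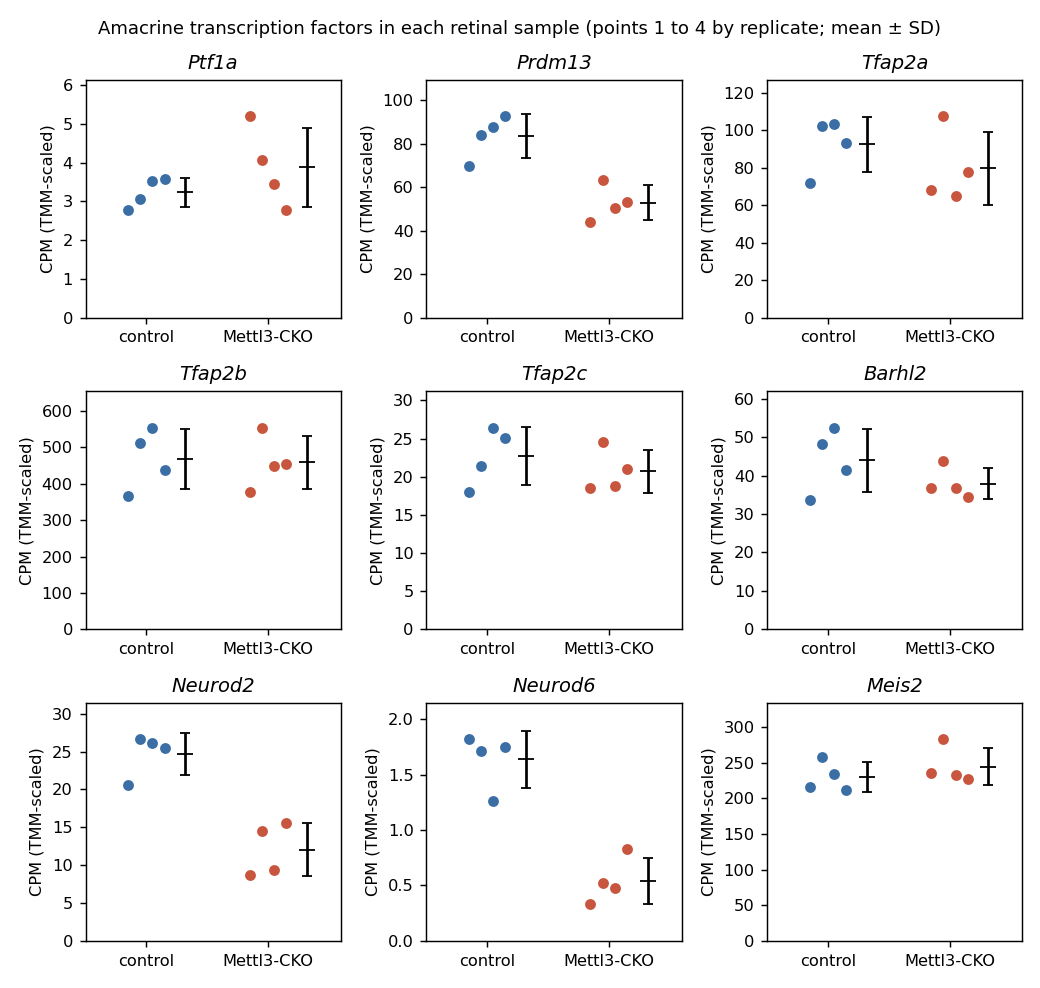
TMM-scaled CPM of each factor in the 4 control (blue) and 4 *Mettl3*-CKO (red) samples, replicates 1 to 4 from left to right within a group, with the mean and SD beside them and each axis starting at 0. The groups separate for *Prdm13*, *Neurod2* and *Neurod6* and overlap in the other 6 panels.

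*Neurod2* and *Neurod6*, the bHLH factors of amacrine subtypes, showed the largest falls of the 9. *Neurod2* (chromosome 11, 98325415 to 98329648, minus strand), found in a subset of amacrine cells and in some ganglion cells, was at 20.5, 26.6, 26.1 and 25.4 CPM in control replicates 1 to 4 and at 8.74, 14.6, 9.35 and 15.5 CPM in the *Mettl3*-CKO samples, in the same order. *Mettl3*-CKO replicates 1 and 3 were the lowest, and even replicate 4, the highest, stayed below control replicate 1. The means were 12 ± 3.5 and 24.7 ± 2.8 CPM (SD, n = 4 each), a log2 fold change of -1.03 (SE 0.18, 95% interval -1.42 to -0.64, adjusted p = 0.00434 from edgeR), which is 2.05-fold lower.

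*Neurod6* (chromosome 6, 55677822 to 55681263, minus strand), a marker of amacrine cells that use neither GABA nor glycine, was the scarcest of the factors. It had 34, 28, 24 and 29 counts in control replicates 1 to 4 and 6, 9, 9 and 17 counts in *Mettl3*-CKO replicates 1 to 4. These equal 1.82, 1.71, 1.26 and 1.75 CPM against 0.332, 0.522, 0.478 and 0.831 CPM, with no overlap between groups. The means were 0.541 ± 0.21 and 1.64 ± 0.255 CPM (SD, n = 4 each), a log2 fold change of -1.57 (SE 0.32, 95% interval -2.27 to -0.87, adjusted p = 0.0102 from edgeR). With so few counts the size is imprecise, and its interval spans 0.207 to 0.548 of the control level. By fold it ranked number 35 among the 729 genes called lower, with *Neurod2* at 126 and *Prdm13* at 289. Of 67 tested bHLH genes, 8 were called lower (11.9%) and 4 higher (5.97%), and *Neurod6* and *Neurod2* had the largest falls among the 8.

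**Figure D3:**
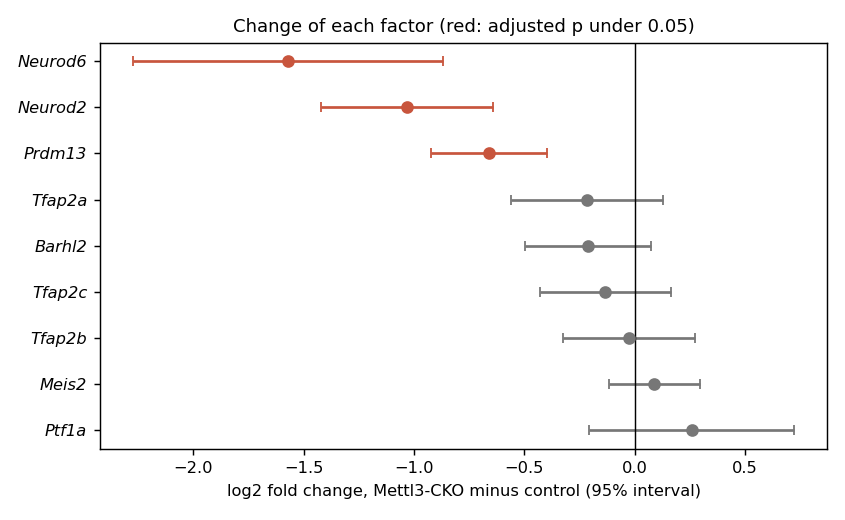
Log2 fold change of each factor (*Mettl3*-CKO minus control, edgeR) with its 95% interval, in red where the adjusted p was under 0.05. *Neurod6* (-1.57), *Neurod2* (-1.03) and *Prdm13* (-0.66) lie left of 0 with their whole intervals, and the other 6 intervals span 0.

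The AP-2 factors, which remain on in differentiated amacrine and horizontal cells, differed by less than the spread between samples. *Tfap2b* (chromosome 1, 19208914 to 19238576, plus strand) was at 367, 511, 554 and 437 CPM in control replicates 1 to 4 and at 376, 554, 449 and 454 CPM in the *Mettl3*-CKO samples, in the same order. Replicate 1 was the lowest of each group, and the groups spanned nearly the same range. The log2 fold change was -0.03 (SE 0.14, 95% interval -0.33 to 0.27, adjusted p = 0.935 from edgeR), an interval that holds levels from 0.797 to 1.21 of control.

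*Tfap2a* (chromosome 13, 40715302 to 40738376, minus strand) was at 71.8, 102, 103 and 93.4 CPM in control replicates 1 to 4 and at 68.4, 108, 65.1 and 77.6 CPM in the *Mettl3*-CKO samples, in the same order. *Mettl3*-CKO replicate 2 was the highest of all 8 samples, and control replicate 1 lay among the other *Mettl3*-CKO samples. Its log2 fold change was -0.22 (95% interval -0.56 to 0.13, adjusted p = 0.446 from edgeR). Its exons share bases with 3 antisense genes (*Gm47061*, *Gm26688* and *Gm47067*), with the same uncertainty of strand. *Tfap2a* is also a lens gene, and control replicate 4, the sample with lens RNA, was within the range of the other controls for it.

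*Tfap2c* (chromosome 2, 172549593 to 172558622, plus strand), the AP-2 factor most restricted to amacrine cells in the retina, ranged from 18.0 to 26.4 CPM in controls and from 18.5 to 24.6 CPM in *Mettl3*-CKO samples. Its log2 fold change was -0.13 (95% interval -0.43 to 0.16, adjusted p = 0.607 from edgeR). Within the family *Tfap2b* gave 72.7% to 75.6% of the summed FPKM of the 3 genes in controls and 75.3% to 79.4% in *Mettl3*-CKO samples.

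The homeobox factors *Barhl2* and *Meis2* did not pass the test. *Barhl2* (chromosome 5, 106452523 to 106458166, minus strand), required for amacrine subtype formation, was at 33.6, 48.3, 52.5 and 41.5 CPM in control replicates 1 to 4 and at 36.8, 43.8, 36.7 and 34.3 CPM in the *Mettl3*-CKO samples, in the same order. Control replicate 1 was the lowest of all samples. The log2 fold change was -0.21 (95% interval -0.50 to 0.07, adjusted p = 0.355 from edgeR), and without control replicate 1 it was -0.32 and passed the threshold (adjusted p = 0.0414 from edgeR). *Barhl2* passed in only 1 of the 8 fits that each left out a sample. Their adjusted p values reached 0.687 (edgeR). *Meis2* (chromosome 2, 115863064 to 116065839, minus strand), a marker of GABAergic amacrine cells that progenitors can also express, was the most even of the 9 in controls, with a coefficient of variation of 9.10%. It ranged from 212 to 258 CPM in controls and from 227 to 283 CPM in *Mettl3*-CKO samples, a log2 fold change of 0.09 (95% interval -0.12 to 0.30, adjusted p = 0.627 from edgeR).

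Relating each factor to *Tfap2b* within the same library takes out the library scaling. In control replicates 1 to 4, *Prdm13* FPKM was 28.1%, 24.4%, 23.5% and 31.5% of *Tfap2b* FPKM, and in *Mettl3*-CKO replicates 1 to 4 it was 17.4%, 17.0%, 16.7% and 17.3%. The *Mettl3*-CKO values lay closely together, below all controls. For *Neurod2* the share was 9.50% to 11.7% in controls and 4.20% to 6.90% in *Mettl3*-CKO samples, and for *Neurod6* 0.670% to 1.46% against 0.260% to 0.539%. *Ptf1a* (2.52% to 3.43% against 2.58% to 5.81%) and *Tfap2a* (24.1% to 27.6% against 18.7% to 25.1%) overlapped. These shares are descriptions without a test, since *Tfap2b* was picked as the reference with its values known.

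**Figure D4:**
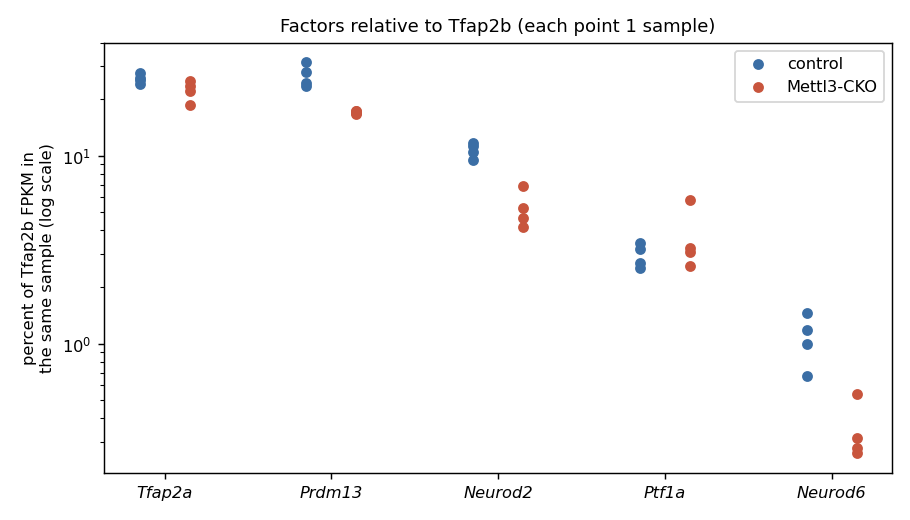
FPKM of 5 factors as a percent of *Tfap2b* FPKM in the same sample (log scale), controls in blue and *Mettl3*-CKO in red. The groups separate for *Prdm13*, *Neurod2* and *Neurod6*, with the 4 *Mettl3*-CKO values of *Prdm13* between 16.7% and 17.4%.

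Other transcription factors linked to amacrine cells mostly did not pass the test. Of 21 such genes, all tested, 1 was called higher and 2 lower, with a median log2 fold change of 0.07. *Neurod4*, a bHLH factor of amacrine and bipolar precursors, rose (log2 fold change 0.42, adjusted p = 0.0467 from edgeR), although its groups overlapped. *Neurod1*, a bHLH factor of photoreceptors and some amacrine cells, fell (-0.35, adjusted p = 0.0148 from edgeR), and the ETS factor *Etv1* fell (-0.44, adjusted p = 0.0247 from edgeR). *Foxn4*, which acts upstream of *Ptf1a* in progenitors, was higher in every *Mettl3*-CKO sample than in any control, yet its log2 fold change of 0.71 did not pass (adjusted p = 0.0720 from edgeR). It is named after its values were seen.

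Of 7 paralogs of the factors, 2 were called higher and 1 lower. These were *Neurod4* and *Neurod1*, given above, and *Tfap2d*, the AP-2 gene of ganglion cells and midbrain, which rose (log2 fold change 0.54, adjusted p = 0.0386 from edgeR). It was the only AP-2 gene called among the 5 tested. Of 11 genes for cofactors, among them the *Ptf1a* partners *Rbpj* and *Tcf12*, 10 were tested and 0 called, with a median log2 fold change of -0.03. None of these 10 had an unadjusted p under 0.05 in edgeR, and *Rbpjl* had 1 count in all samples together.

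Of 25 amacrine transmitter, peptide and synaptic genes, 23 were tested, 4 were called lower and 0 higher, with a median log2 fold change of -0.24. *Ppp1r17*, which marks the same kind of amacrine cell as *Neurod6*, fell by 0.99 on the log2 scale (SE 0.15, adjusted p = 0.00176 from edgeR). *Slc6a9*, the glycine transporter GLYT1, fell by 0.80 (SE 0.11, adjusted p = 0.00104 from edgeR). The peptide gene *Tac1* fell as well (-0.65, adjusted p = 0.0217 from edgeR). The summed level of the list was 1180 to 1270 CPM in controls and 933 to 1150 CPM in *Mettl3*-CKO samples, without overlap. *Slc32a1*, the vesicular transporter of GABA and glycine, had a log2 fold change of -0.42 and did not pass (adjusted p = 0.0761 from edgeR). *Gad1*, which makes GABA, had a log2 fold change of -0.17 (adjusted p = 0.350 from edgeR) and *Chat*, of the cholinergic starburst cells, 0.01 (adjusted p = 0.972 from edgeR). These 3 uncalled genes are named after their values were seen.

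**Figure D5:**
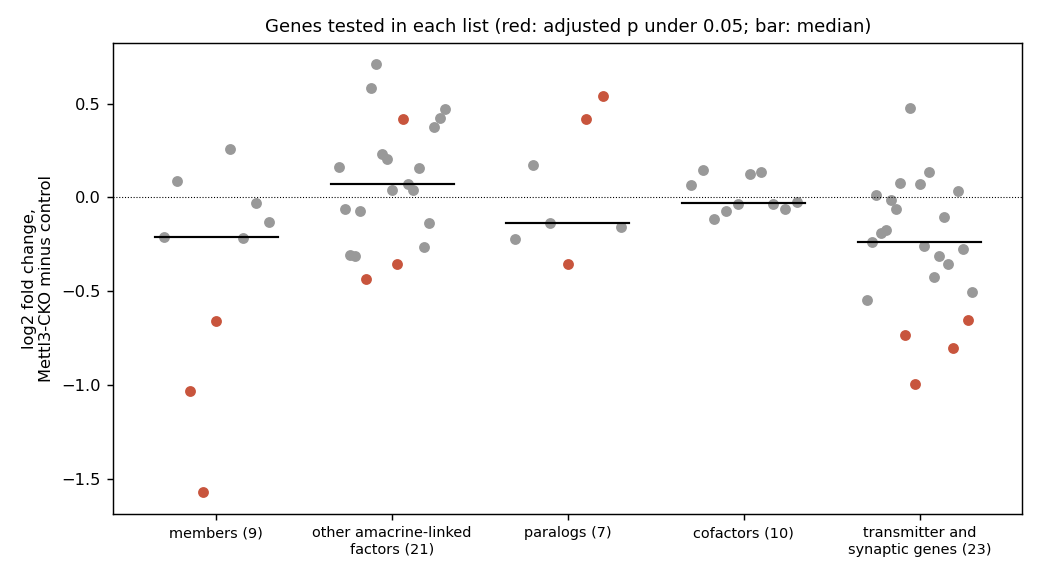
Log2 fold change (*Mettl3*-CKO minus control, edgeR) of every tested gene in 5 lists, in red where the adjusted p was under 0.05, with a bar at the median. The medians are -0.21 for the 9 factors, 0.07 for other amacrine-linked factors, -0.14 for paralogs, -0.03 for cofactors and -0.24 for transmitter and synaptic genes.

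Cells other than amacrine cells also express some of these factors, and markers of other retinal cells moved in the same samples. Of 10 rod genes 5 were called lower and 0 higher, among them the rod factors *Nr2e3* (log2 fold change -0.81, adjusted p = 0.00615) and *Nrl* (-0.79, adjusted p = 0.00861 from edgeR). The rod sum was 3230 to 5130 CPM in controls and 1820 to 3370 CPM in *Mettl3*-CKO samples. Of 11 progenitor and cell cycle genes 4 were called higher and 0 lower, among them *Fgf15* (1.08, adjusted p = 0.00612) and *Mki67* (0.98, adjusted p = 0.000701 from edgeR), and their sum was 2220 to 2930 CPM in controls and 2930 to 4030 CPM in *Mettl3*-CKO samples, so that the groups met without overlapping.

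Horizontal cells share the AP-2 factors and *Ptf1a* with amacrine cells. Of 9 listed genes for them 1 was called higher, the ganglion and horizontal cell factor *Onecut2* (log2 fold change 0.58, adjusted p = 0.0383 from edgeR), and 0 lower, with sums of 404 to 435 CPM against 435 to 459 CPM. These are RNA levels, whereas the study's count of stained horizontal cells was lower in the mutant. Of 11 ganglion cell genes 2 were called higher and 0 lower, *Atoh7* (1.57, adjusted p = 0.000434) and *Pou4f1* (0.55, adjusted p = 0.0108 from edgeR), with sums of 883 to 1270 CPM against 1060 to 1160 CPM. *Atoh7* is the bHLH factor of ganglion cell precursors.

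Of 10 endothelial genes 8 were called lower and 0 higher, although *Kdr*, which makes up most of their sum, was not called (0.02, adjusted p = 0.921 from edgeR). The 3 tested of 5 erythrocyte genes gave 2 lower and 0 higher, and the 7 tested of 9 genes of ciliary margin, iris and pigment epithelium gave 3 lower and 1 higher. Of 8 tested bipolar genes 2 were called higher and 1 lower, of 9 tested Müller glia genes 1 and 1, of 7 tested cone genes 0 and 1, and of 7 microglia genes and 2 tested cornea genes 0. Of 9 tested lens genes 5 were called lower, a list that control replicate 4 dominates. No gene of the rod, progenitor, horizontal, ganglion cell and endothelial lists was at 0 in any sample. The part of these cells in the falls of *Prdm13*, *Neurod2* and *Neurod6* was not tested. Without control replicates 1 and 4 all 3 were still called lower, at log2 fold changes of -0.70, -1.13 and -1.43.

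The genes whose pattern over the 8 samples was most like that of a called factor were sought among 14317 tested genes with a mean log2 CPM of at least 1, by the root mean square difference of centred log2 CPM. For *Prdm13* they were *Myo7a* (0.0842), *Gm37607* (0.0846) and *Hmx1* (0.0884). *Myo7a* encodes a myosin of photoreceptors and pigment epithelium, and *Hmx1* a homeobox factor. For *Neurod2* they included *Tmprss5* (0.145) and *Zfp385c* (0.175), and for *Neurod6* they were *Clrn1* (0.220), *Pcare*, a gene of the photoreceptor cilium (0.228), and *Col17a1* (0.246). All of the genes named here were called lower, which the way they were chosen favours.

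METTL3 acts at short motifs of which GGACT is a common form (given here in DNA letters, on the transcript's strand). In the longest coding transcript of each gene in GENCODE vM21, *Prdm13* had 4 matches (1.26 per kb), *Neurod2* 4 (1.27 per kb) and *Neurod6* 2 (0.930 per kb). The factors that did not pass the test ranged from 0.432 per kb in *Barhl2* to 1.88 per kb in *Meis2*, and the median over 14285 tested genes was 1.05 per kb. The density in the factors that fell thus lay inside the range of the others. A match does not show that the site is methylated. The study did map m6A directly, by sequencing immunoprecipitated RNA of newborn, postnatal day 7 and adult retinas. Its peaks are not used here.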

How the data were processed

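RNA of whole retina, 4 *Mettl3*-CKO and 4 control samples, was profiled by RNA-seq. The authors deposited raw counts for each gene, which came from filtered reads that were mapped to GRCm38 with Hisat2 and counted with featureCounts. Whether strand was used is not given in the sources used here. The gene lengths, in bases, are other values that the authors deposited with the counts. The 9 members have the same coordinates in GENCODE vM21.

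All genes were fitted in R 4.3.3 with edgeR 4.0.16 (filterByExpr, TMM, glmQLFit, glmQLFTest, two-sided), with Benjamini-Hochberg adjustment over 17998 genes. The SE is the absolute log2 fold change over the square root of F. CPM is TMM-scaled, and log2 CPM uses a prior count of 2. DESeq2 1.42.0 and limma 3.58.1 were alternatives. Named genes are the members, *Mettl3*, called genes of the lists (at most 3 of smallest p in each direction), and the nearest patterns, of which 1 is not reported here. *Foxn4*, *Gad1*, *Slc32a1*, *Chat*, *Kdr*, *Rbpj*, *Tcf12* and *Rbpjl* fall outside this rule and were chosen after their values were seen. For lists of cells other than amacrine cells, mainly counts and sums are given. Members and lists were chosen with earlier results of these data known. None of the 28 pairs of samples was identical, and the lowest chi-square per gene was 5.47, so each was counted as a sample.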

Additional observations from a re-analysis of the deposited data

Results flagged for a closer look

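Of 20 groups of 4 samples (9 factors and *Mettl3* in both groups), 2 held a sample farther from the rest than Dixon's 95% critical value allows, where chance gives about 1. *Neurod6* was low in control replicate 3, at 0.45 on the log2 CPM scale against 0.87 to 0.95 in the other controls, from 24 counts. *Meis2* was high in *Mettl3*-CKO replicate 2, at 8.14, the remaining 3 samples of its group lying between 7.83 and 7.88. No explanation was tested for either value.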

How the results depend on the processing

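*Prdm13*, *Neurod2* and *Neurod6* were called lower in each of the 16 alternatives: other tests (DESeq2, limma voom with sample quality weights), scalings and filters, the replicate block and samples left out. Their log2 fold changes ran from -0.76 to -0.58, from -1.18 to -0.90 and from -1.86 to -1.39. The adjusted p values reached at most 0.0333, 0.0202 and 0.0461, each without *Mettl3*-CKO replicate 1. Over the 8 fits that each left out a sample, 3 to 4 factors were called lower and 0 higher, and over all genes 185 to 1289 were called lower and 509 to 1882 higher (1168 higher and 729 lower with all samples). The lowest counts came without *Mettl3*-CKO replicate 1 and the highest without control replicate 1. Limma voom called 2142 genes higher and 1568 lower, and 5 factors lower, adding *Tfap2a* (-0.39, adjusted p = 0.0259) and *Barhl2* (-0.36, adjusted p = 0.0233). The cause was not tested. Without control replicates 1 and 4 *Barhl2* was at -0.41 (adjusted p = 0.0305), and *Meis2* changed sign to -0.012. *Barhl2* was called lower in 3 of the 16 alternatives. With single samples left out, *Tfap2b* ran from -0.129 to 0.0677 and changed sign without control replicate 2, control replicate 3 or *Mettl3*-CKO replicate 1. *Mettl3* passed with DESeq2 (-0.38, adjusted p = 0.0333) and limma voom (-0.39, adjusted p = 0.0139). It was called in 3 of the 16 alternatives and not in the main fit (adjusted p = 0.0602 from edgeR).

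Replicate numbers are shared by both groups, but the correlations of same-numbered samples' deviations across genes were positive for numbers 2 (0.22) and 4 (0.25) and negative for 1 and 3 (-0.11 each). Not every sample correlated best with its own number, and the numbers were taken as names only. With the replicate block 1198 genes were called higher and 660 lower, and 3 factors lower and 0 higher, and it changed no call of a factor. At this depth *Neurod6*, with 6 to 34 counts a sample, is the factor whose size is most limited by counting.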
